A study of Homo sapiens with 12 samples.

Results

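The enzymes that place methyl groups on histone lysines and those that remove them, with the non-catalytic partners of the Polycomb methyltransferase, were followed in T47D cells after knockdown of PRMT1 and a progestin pulse. The 38 genes were taken by name from the families of histone lysine methyltransferases and demethylases, without reference to a measured threshold, out of 55765 genes counted. They comprise 24 methyltransferases and partners and 14 demethylases. All 38 were in the count tables, KDM7A under its older symbol JHDM1D, and all 38 passed the filter on low counts that left 17727 genes for testing.

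T47D is a luminal breast cancer line with both estrogen and progesterone receptors. mRNA libraries were sequenced from 4 groups with 3 biological replicates each, all of this single line. The siPRMT1 R5020 group received an siRNA against PRMT1, an arginine methyltransferase of histone H4 and many other proteins, followed by R5020, a synthetic progestin, at 10 nM for 6 h. The siPRMT1 ethanol group received the same siRNA and the ethanol vehicle for 6 h. The siCT R5020 and siCT ethanol groups received a control siRNA with 10 nM R5020 or with ethanol for 6 h. The sample titles call the ethanol libraries T0, whereas their treatment label gives 6 h of ethanol. The number of siRNA sequences is not given in the sources used here, so knockdown of PRMT1 and other effects of the siRNA cannot be told apart.

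Methyl groups on histone lysines are set by SET-domain enzymes, and by DOT1L, which lacks that domain. They are removed by the flavin-dependent enzymes KDM1A and KDM1B or by the Jumonji oxygenases. Methylation of H3K4, H3K36 and H3K79 is found mainly on active genes, that of H3K9, H3K27 and H4K20 mainly on repressed or compacted chromatin. In breast cancer cells the steroid receptors recruit several of these enzymes to their target genes.

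PRMT1 itself was counted at 6.98, 6.88 and 7.37 CPM (each count scaled to its library's TMM-adjusted total) in siPRMT1 R5020 libraries, against 40.6, 50.7 and 37.5 CPM in siCT R5020 libraries. The ethanol libraries had 7.91, 8.38 and 8.38 CPM with siPRMT1 and 45.3, 37.4 and 29.7 CPM with siCT. The log2 fold change was -2.60 in R5020 and -2.19 in ethanol, and the groups were apart in both. Libraries held 26783525 to 34120937 counts, and the 38 genes together took 0.107% to 0.201% of them. A pair of siCT libraries stood apart by their mitochondrial counts, which made up 59.3% of siCT ethanol replicate 3 and 52.4% of siCT R5020 replicate 1, against 31.3% to 38.3% of the other 10. Results without this pair are therefore also given, as log2 values for some genes only. The median coefficient of variation of the 38 genes between replicates was 4.66% in siPRMT1 R5020 and 4.04% in siPRMT1 ethanol libraries, and 9.44% in siCT R5020 and 16.4% in siCT ethanol libraries. The 10 luminal markers, among them KRT18, KRT8 and GATA3, summed to 10760 to 15110 CPM in the siPRMT1 libraries and to 5345 to 9745 CPM in the siCT libraries. KRT18 alone averaged 7630 CPM in siPRMT1 ethanol and 2859 CPM in siCT ethanol libraries, and 5895 and 2215 CPM with R5020. Not all markers went this way: GATA3 averaged 864.7 CPM in siPRMT1 ethanol and 958.7 CPM in siCT ethanol libraries, and 455.7 and 713.1 CPM with R5020. EPCAM and SPDEF also had lower means with siPRMT1. Markers of endothelium (0 to 0.146 CPM), leukocytes (1.17 to 2.13 CPM) and basal breast lines (1.78 to 4.13 CPM) stayed near 0, with CDH5, VWF, PTPRC, CD3E, CD68, KRT5 and KRT14 at 0 in at least 1 library. The stromal markers summed to 30.2 to 85.0 CPM, almost all of it COL1A1.

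**Figure D1:**
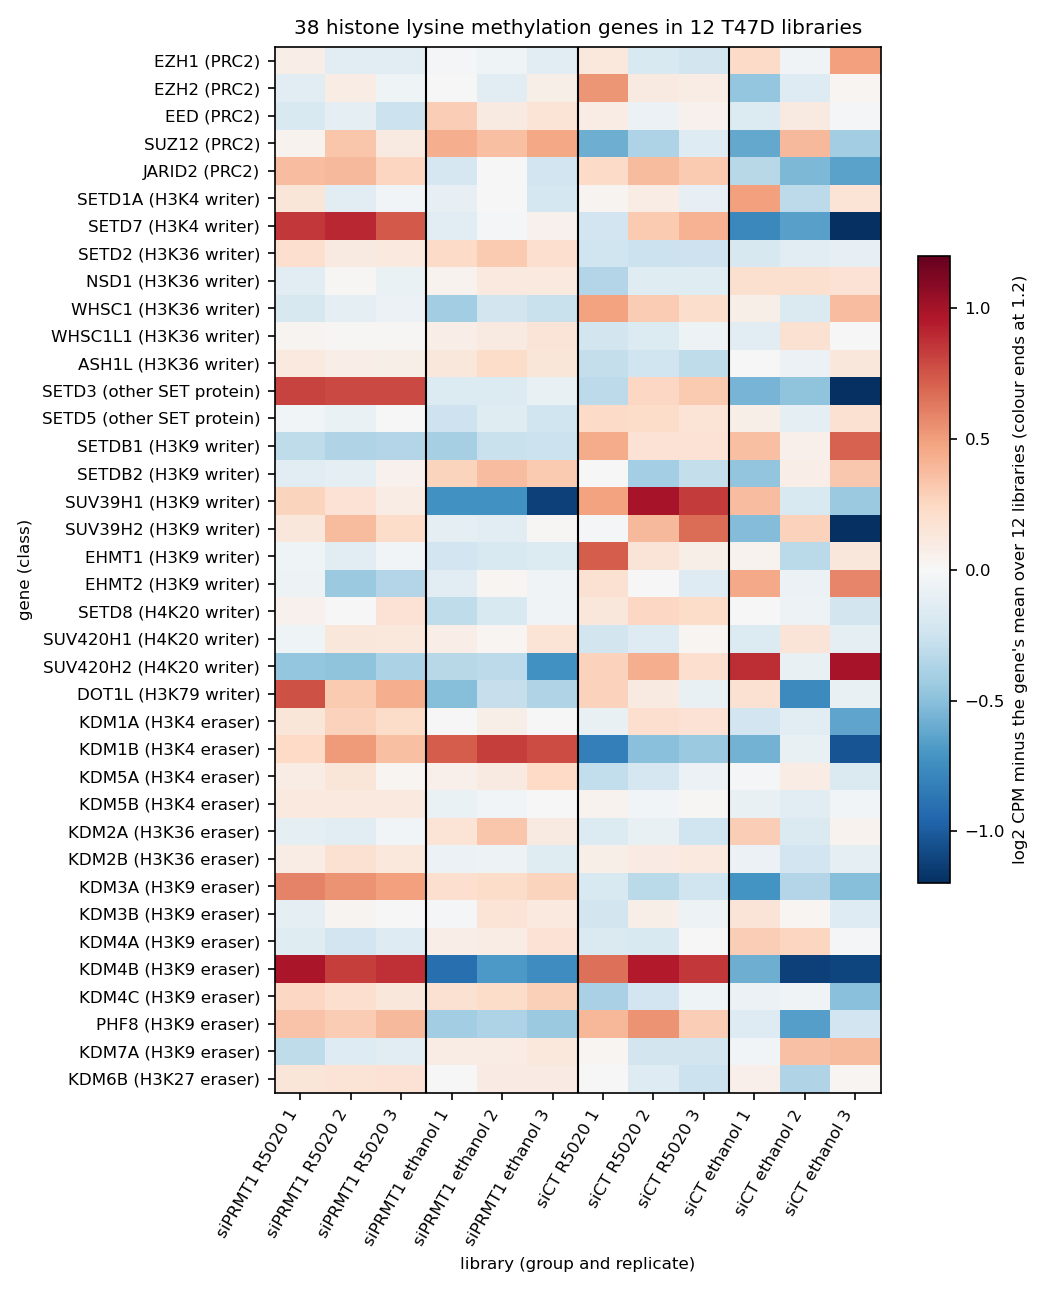
Level of each of the 38 genes (rows, with the residue or complex) in each of the 12 libraries (columns), as log2 CPM minus the gene's mean over all libraries; red is above and blue below that mean, and the colour ends at 1.2. KDM4B is redder in the R5020 than in the ethanol columns with both siRNAs, and KDM1B and KDM3A are redder in the siPRMT1 than in the siCT columns.

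Across the 4 pairwise comparisons, 14 of the 38 genes passed the test at least once and 24 passed in none. The quasi-likelihood test of edgeR was used, with p-values adjusted by Benjamini-Hochberg over all 17727 genes and called under 0.05. The fit held all 12 libraries, and a gene said below to be called or past the test, or not, is so by this fit unless another is named. SETD7, SETD3 and SUV39H1 passed in all 4. The 31 calls comprised 7 for R5020 in siPRMT1 cells, 7 for R5020 in siCT cells, 8 for siPRMT1 in ethanol and 9 for siPRMT1 in R5020. These comparisons called 15.4%, 13%, 32.8% and 25.7% of all genes. The share of all genes called at least once, or in all 4, was not computed. All 31 held without the pair of siCT libraries of high mitochondrial share, and 6 held when library totals alone, with no TMM factor, set the scale. Per kilobase of exon, SETD3 had the highest mean level of the 38 in siPRMT1 R5020 libraries, at 21.1 CPM per kb, followed by ASH1L at 15.9. SUV420H2 had the lowest there, at 0.605 CPM per kb.

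R5020 against ethanol asks which of these genes move with 6 h of progestin. In siPRMT1 cells 7 genes rose and none fell, and in siCT cells 6 rose and 1 fell. These counts depend on the fit: in siPRMT1 cells voom with quality weights called 15 higher and 9 lower, edgeR on the compared groups alone 15 and 8, and edgeR on library totals alone 1 and 0. In siCT cells the same fits called 7 and 0, 3 and 0, and 1 and 0. Of all genes, these fits called 46.1%, 46.6% and 11.6% in siPRMT1 cells and 11.6%, 5.29% and 8.9% in siCT cells. Over all genes tested, edgeR over all 12 libraries called 9.3% higher and 6.08% lower in siPRMT1 cells, and 7.59% higher and 5.43% lower in siCT cells. The share of the 38 called in either direction was 18.4% in siPRMT1 and 18.4% in siCT cells, beside 15.4% and 13% of all genes. With library totals that leave out mitochondrial genes, 6 rose and 1 fell in siPRMT1 cells and 6 rose and 2 fell in siCT cells. This fit called 16.3% and 14.1% of all genes. The median log2 fold change of the 38 was 0.009 in siPRMT1 and -0.04 in siCT cells, beside -0.004 and -0.043 over all genes. The genes that rose in both were KDM4B, PHF8, SETD7, SETD3, JARID2 and SUV39H1.

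KDM4B, a Jumonji demethylase of H3K9 and H3K36 whose gene is also a known estrogen receptor target, had the largest rise. It had 97.2, 87.6 and 90.2 CPM in siPRMT1 R5020 libraries, against 26.2, 30.6 and 29.4 CPM in siPRMT1 ethanol libraries. In siCT cells it had 77.6, 95.2 and 88.4 CPM with R5020, against 32.9, 22.7 and 22.9 CPM with ethanol. The R5020 and ethanol libraries did not overlap with either siRNA. Its log2 fold change was 1.67 ± 0.17 (SE, n = 3 per group) in siPRMT1 cells (adjusted p = 1.06e-05, edgeR) and 1.73 ± 0.17 in siCT cells (adjusted p = 9.5e-06, edgeR). This SE, like those below, pools the spread of all 12 libraries and is not that of the compared groups alone. Both calls held under all 21 alternatives, with log2 values of 1.498 to 1.73 in siPRMT1 and 1.64 to 1.94 in siCT cells. Its paralogs did not follow: KDM4A had log2 values of -0.29 in siPRMT1 and -0.30 in siCT cells, and KDM4C of -0.04 and -0.03, none past the test. KDM4A was called lower in siPRMT1 cells by voom and by edgeR on the compared groups alone, and with both siRNAs without the pair of high mitochondrial share. As raw counts, which need no scaling between libraries, KDM4B ran at 8.38 to 9.01 times KDM4A in siPRMT1 R5020 libraries and at 2.07 to 2.41 times in siPRMT1 ethanol libraries. The same ratio was 7.31 to 9.07 in siCT R5020 and 1.59 to 2.23 in siCT ethanol libraries. In GENCODE v29, an annotation of another build, KDM4A shares 40.2% of its exon bases with AL451062.3 on the same strand. The effect of this on its counts was not tested. KDM4B ran at 6.85 to 7.41 times KDM4C in siPRMT1 R5020 and 2.09 to 2.36 times in siPRMT1 ethanol libraries. In siCT cells that ratio was 8.25 to 10 with R5020 and 2.11 to 3.11 with ethanol.

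The 250 bases before the annotated start of KDM4B (RefSeq, GRCh38.p14, chr19:4968863-4969112, plus strand, 5′ to 3′) are shown because this gene carries the progestin result. Capitals mark CCAAT on either strand.
KDM4B: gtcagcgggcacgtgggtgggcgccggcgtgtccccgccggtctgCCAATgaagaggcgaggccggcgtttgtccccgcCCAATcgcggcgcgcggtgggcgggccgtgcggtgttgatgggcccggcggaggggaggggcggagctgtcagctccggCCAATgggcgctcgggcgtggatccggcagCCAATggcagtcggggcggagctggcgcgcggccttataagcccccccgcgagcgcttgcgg
This window held 4 CCAAT matches, at 205, 171, 92 and 62 bases before the start, and CCAAT was found in 15 of the 36 members with a RefSeq promoter (41.7%), beside 32% of all 35116 promoters. The steroid receptor palindrome ACANNNTGT was found in 1 of 36 (2.78%, SETDB1), beside 4.61% of all promoters, and its TGTTCT or AGAACA arm in 0 of 36, beside 12.4%. Both strands were searched, and a match describes letters in this window only. DOT1L and WHSC1L1 are not among the 36.

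PHF8, a Jumonji demethylase that acts on H3K9 and H4K20, had 84.0, 81.5 and 86.4 CPM in siPRMT1 R5020 libraries, against 49.5, 51.0 and 48.6 CPM in siPRMT1 ethanol libraries. It had 87.4, 96.2 and 81.3 CPM in siCT R5020 libraries, against 59.4, 41.9 and 56.5 CPM in siCT ethanol libraries. Every R5020 library was above every ethanol library with the same siRNA. The log2 fold change was 0.76 ± 0.15 in siPRMT1 cells (adjusted p = 0.00283, edgeR) and 0.75 ± 0.15 in siCT cells (adjusted p = 0.0036, edgeR). With edgeR on the compared groups alone the siCT call was lost, and with library totals alone both calls were lost. KDM7A, a relative of PHF8, had log2 values of -0.29 in siPRMT1 and -0.38 in siCT cells, neither past the test. It was, however, called lower under the alternatives named above for KDM4A. In siCT cells KDM7A was also called lower with library totals that leave out mitochondrial genes, and without siCT ethanol replicate 1. The ratio of PHF8 to KDM7A counts was 2.13 to 2.45 in siPRMT1 R5020 and 1.05 to 1.13 in siPRMT1 ethanol libraries, and 2.03 to 2.65 in siCT R5020 and 0.774 to 1.43 in siCT ethanol libraries.

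SETD7, which monomethylates H3K4 and also many non-histone proteins, including steroid receptors, had 140.5, 146.3 and 130.1 CPM in siPRMT1 R5020 libraries, against 71.2, 77.1 and 81.0 CPM in siPRMT1 ethanol libraries. In siCT cells it had 66.5, 96.8 and 103.9 CPM with R5020, against 45.5, 49.5 and 27.9 CPM with ethanol. The groups did not overlap with either siRNA, and the lowest library of each siCT group was one of the pair of high mitochondrial share. Its log2 fold change was 0.86 ± 0.21 in siPRMT1 cells (adjusted p = 0.013, edgeR) and 1.12 ± 0.21 in siCT cells (adjusted p = 0.00287, edgeR). Without that pair it was 0.86 and 1.07. Leaving out siPRMT1 ethanol replicate 1 ended the call in siPRMT1 cells (log2 0.82, adjusted p = 0.0647, edgeR).

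SETD3, a SET-domain protein best known as the histidine methyltransferase of actin, had 110.9, 109.4 and 108.9 CPM in siPRMT1 R5020 libraries, against 56.5, 56.4 and 59.5 CPM in siPRMT1 ethanol libraries. In siCT cells it had 50.8, 75.1 and 78.6 CPM with R5020, against 42.7, 45.0 and 27.4 CPM with ethanol. The groups were apart in both, with the wider spread in siCT cells. The log2 fold change was 0.93 ± 0.20 in siPRMT1 cells (adjusted p = 0.00516, edgeR) and 0.83 ± 0.20 in siCT cells (adjusted p = 0.013, edgeR). The siCT call was lost on leaving out siCT R5020 replicate 2 or 3 (log2 0.72 to 0.76, adjusted p = 0.0587 to 0.0645, edgeR). That call was also lost with edgeR on the compared groups alone. SETD5, the neighbour of SETD3 by name, had log2 values of 0.17 in siPRMT1 and 0.16 in siCT cells, neither past the test, although voom called it higher in siPRMT1 cells.

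JARID2, a non-catalytic partner that recruits Polycomb repressive complex 2 (PRC2), had 23.9, 24.2 and 22.1 CPM in siPRMT1 R5020 libraries, against 16.1, 18.5 and 15.7 CPM in siPRMT1 ethanol libraries. It had 21.6, 24.1 and 23.0 CPM in siCT R5020 libraries, against 14.6, 12.7 and 11.9 CPM in siCT ethanol libraries. R5020 libraries were above ethanol libraries throughout. Its log2 fold change was 0.48 ± 0.13 in siPRMT1 cells (adjusted p = 0.0237, edgeR) and 0.81 ± 0.13 in siCT cells (adjusted p = 0.000932, edgeR). In siPRMT1 cells the call was lost on leaving out siPRMT1 ethanol replicate 1 or 3 or any siPRMT1 R5020 replicate (log2 0.44 to 0.52, adjusted p = 0.0553 to 0.116, edgeR). The other 4 PRC2 genes were not called by edgeR over all 12 libraries: the catalytic subunits EZH1 and EZH2 had log2 values of 0.01 and -0.01 in siPRMT1 and of -0.32 and 0.44 in siCT cells, the core subunit EED had -0.37 and 0.05, and SUZ12 had -0.26 and -0.22. In siPRMT1 cells EED was called lower by DESeq2 (adjusted p = 0.0446), by voom (adjusted p = 0.000714) and by edgeR without the pair of high mitochondrial share (adjusted p = 0.0246), and SUZ12 by voom (adjusted p = 0.0181).

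SUV39H1, a writer of H3K9 trimethylation in heterochromatin, had 11.8, 11.1 and 10.4 CPM in siPRMT1 R5020 libraries, against 5.92, 5.90 and 4.51 CPM in siPRMT1 ethanol libraries. In siCT cells it had 13.7, 19.5 and 17.5 CPM with R5020, against 12.6, 8.61 and 7.21 CPM with ethanol. The groups did not overlap, although siCT R5020 replicate 1 lay close to siCT ethanol replicate 1. The log2 fold change was 1.02 ± 0.21 in siPRMT1 cells (adjusted p = 0.00447, edgeR) and 0.83 ± 0.21 in siCT cells (adjusted p = 0.0178, edgeR). The siCT call was lost on leaving out siCT ethanol replicate 2 or siCT R5020 replicate 2 or 3 (adjusted p = 0.0518 to 0.086, edgeR). That call was also lost with edgeR on the compared groups alone. In GENCODE v29, an annotation of another build, 20.3% of the exon bases of SUV39H1 lie under an antisense gene, and reads of both cannot be told apart without a stated strand setting. Of 22 proliferation genes, 6 were called higher with R5020 in siPRMT1 and 11 in siCT cells, beside 9.3% and 7.59% of all genes. None was called lower, beside 6.08% and 5.43%. The 22 genes summed to 926.3 to 976.6 CPM in siPRMT1 R5020 and 833.7 to 853.7 CPM in siPRMT1 ethanol libraries. In siCT cells they summed to 947.2 to 1200 CPM with R5020 and 547.8 to 731.5 CPM with ethanol. Their part in the result was not tested.

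**Figure D2:**
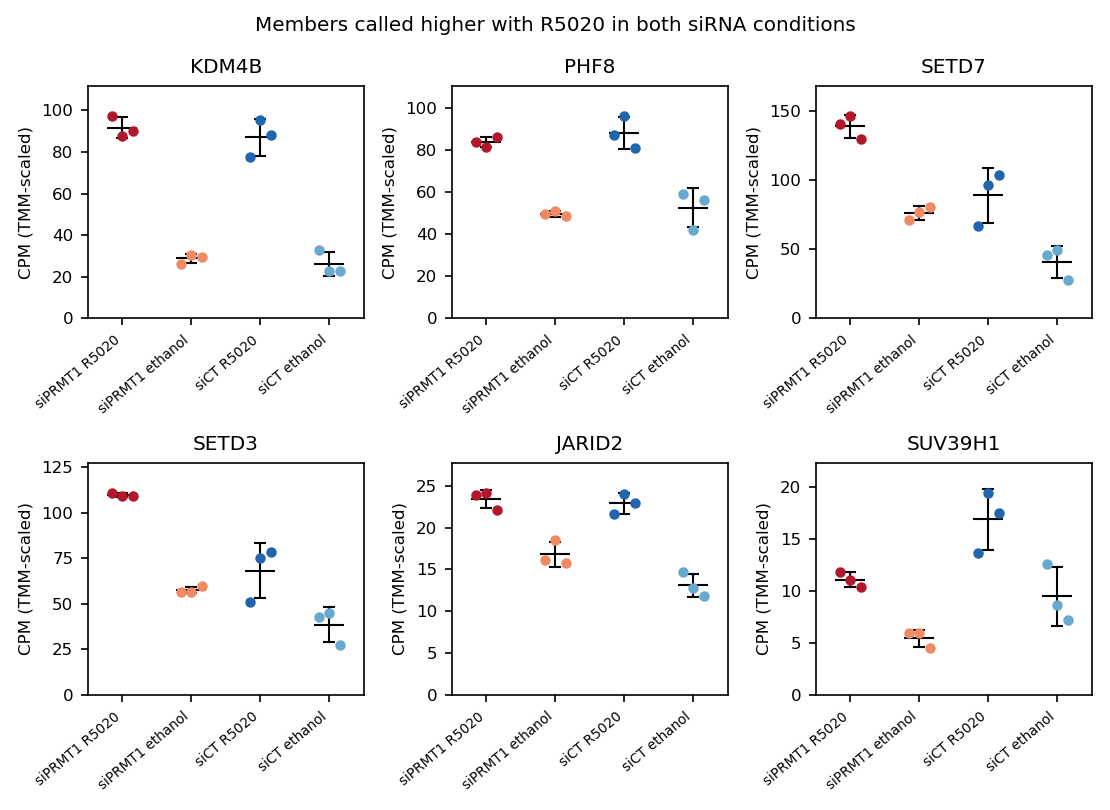
CPM (TMM-scaled, linear axis from 0) of the 6 genes called higher with R5020 with both siRNAs; points are libraries, the long bar is the mean of 3 and the whiskers are the SD. KDM4B sits between 77.6 and 97.2 CPM in the 6 R5020 libraries and between 22.7 and 32.9 CPM in the 6 ethanol libraries.

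DOT1L, the H3K79 methyltransferase, and NSD1, an H3K36 methyltransferase, were called with R5020 with 1 siRNA each. DOT1L averaged 17.5 ± 2.87 CPM in siPRMT1 R5020 and 9.42 ± 0.764 CPM in siPRMT1 ethanol libraries (SD, n = 3 each), a log2 fold change of 0.90 ± 0.22 (adjusted p = 0.0113, edgeR). In siCT cells it averaged 13.2 ± 1.62 CPM with R5020 and 10.8 ± 3.37 CPM with ethanol, where the groups overlapped (log2 0.28, adjusted p = 0.489, edgeR). The difference of these effects was 0.61 with a 95% interval of -0.04 to 1.27. The call was lost on leaving out siPRMT1 R5020 replicate 1 or siPRMT1 ethanol replicate 1 (adjusted p = 0.0594 to 0.0641, edgeR). NSD1 averaged 41.0 ± 3.32 CPM in siCT R5020 and 53.9 ± 0.287 CPM in siCT ethanol libraries, a log2 fold change of -0.40 ± 0.12 (adjusted p = 0.0434, edgeR). In siPRMT1 cells it averaged 45.3 ± 2.41 CPM with R5020 and 50.6 ± 1.46 CPM with ethanol (log2 -0.16, adjusted p = 0.48, edgeR), where voom called it lower (adjusted p = 0.0396). The NSD1 call was lost in 14 of 21 alternatives, among them leaving out any of 9 libraries (adjusted p = 0.0751 to 0.125, edgeR). In GENCODE v29, NSD1 shares 467 exon bases with the pseudogene PRMT1P1 on the other strand.

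The remaining writers were not called with R5020 by edgeR over all 12 libraries. Other fits called some of them: voom called WHSC1, SETD5, SUV39H2 and SETD8 higher and SETDB2 and EHMT2 lower in siPRMT1 cells, and SUV39H2 higher in siCT cells, and DESeq2 called ASH1L lower in siCT cells (adjusted p = 0.0147). ASH1L was also called lower in siCT cells by edgeR without the pair of high mitochondrial share. Among the H3K36 enzymes, SETD2, the trimethylase that travels with elongating polymerase, had log2 values of -0.10 in siPRMT1 and -0.11 in siCT cells, and WHSC1, WHSC1L1 and ASH1L had 0.18, -0.10 and -0.08 in siPRMT1 and 0.23, -0.17 and -0.29 in siCT cells. SETD1A, the catalytic subunit of an H3K4 methyltransferase complex, had 0.10 and -0.14. SETDB1, which works with KAP1 on H3K9, had -0.04 and -0.13. The H3K9 enzymes SETDB2, SUV39H2, EHMT1 and EHMT2 had -0.37, 0.33, 0.12 and -0.23 in siPRMT1 and -0.23, 0.74, 0.38 and -0.34 in siCT cells. The H4K20 enzymes SETD8, SUV420H1 and SUV420H2 had 0.25, -0.01 and 0.01 in siPRMT1 and 0.29, -0.08 and -0.35 in siCT cells.

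Beyond KDM4B and PHF8, the 38 genes hold 12 demethylases, and none of these passed with R5020 by edgeR over all 12 libraries. In siPRMT1 cells voom and edgeR on the compared groups alone called KDM1A, KDM5B, KDM2B and KDM3A higher and KDM1B, KDM2A, KDM4A and KDM7A lower, and in siCT cells DESeq2 called KDM1A higher (adjusted p = 0.0451). Without the pair of high mitochondrial share, edgeR called KDM3A higher and KDM1B, KDM4A and KDM7A lower in siPRMT1 cells. In siCT cells that fit called KDM1A higher and KDM4A and KDM7A lower. The flavin enzymes of H3K4, KDM1A (LSD1) and KDM1B (LSD2), had log2 values of 0.19 and -0.41 in siPRMT1 and of 0.42 and -0.07 in siCT cells. The H3K4 Jumonji enzymes KDM5A and KDM5B had -0.05 and 0.16, and -0.16 and 0.09. The H3K36 enzymes KDM2A and KDM2B had -0.30 and 0.23, and -0.23 and 0.23. KDM3A and KDM3B, which act on H3K9, had 0.31 and -0.12 in siPRMT1 and 0.27 and -0.08 in siCT cells. KDM6B, an H3K27 demethylase, had 0.09 and -0.05. The R5020 and ethanol libraries did not overlap for 27 of the 38 genes in siPRMT1 cells (17 above, 10 below) and 15 in siCT cells (12 above, 3 below). Over all genes 27.6% lay above and 25.5% below in siPRMT1 cells, and 10.5% above and 10.3% below in siCT cells.

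siPRMT1 against siCT asks which of these genes move with loss of PRMT1. In ethanol 5 genes rose and 3 fell, and in R5020 5 rose and 4 fell. Over all genes 13.6% were called higher and 19.2% lower in ethanol, and 11.5% higher and 14.2% lower in R5020. The share of the 38 called was 21.1% in ethanol and 23.7% in R5020, beside 32.8% and 25.7% of all genes. The median log2 fold change of the 38 was 0.11 in ethanol and 0.05 in R5020, beside -0.07 and -0.03 over all genes. KDM1B, KDM3A, SETD7, SETD3 and SETD2 rose in both, and SETDB1, SUV39H1 and SUV420H2 fell in both.

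KDM1B, the flavin-dependent H3K4 demethylase that acts in gene bodies, rose most. It had 31.8, 34.1 and 33.1 CPM in siPRMT1 ethanol libraries, against 12.9, 18.0 and 9.35 CPM in siCT ethanol libraries. With R5020 it had 22.6, 27.4 and 24.7 CPM in siPRMT1 libraries, against 10.9, 13.6 and 14.1 CPM in siCT libraries. Every siPRMT1 library was above every siCT library, and the siPRMT1 ethanol libraries were the highest. Its log2 fold change was 1.29 ± 0.20 in ethanol (adjusted p = 0.000664, edgeR) and 0.95 ± 0.20 in R5020 (adjusted p = 0.00489, edgeR). KDM1A, the better known enzyme of the pair, had log2 values of 0.34 in ethanol and 0.11 in R5020, neither past the test, although DESeq2 called it higher in ethanol (adjusted p = 0.0408). The ratio of KDM1B to KDM1A counts was 1.06 to 1.1 in siPRMT1 ethanol and 0.484 to 0.663 in siCT ethanol libraries, and 0.686 to 0.756 in siPRMT1 R5020 and 0.387 to 0.418 in siCT R5020 libraries.

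KDM3A, a Jumonji demethylase of H3K9 known as a coactivator of nuclear receptors, had 33.8, 34.3 and 35.4 CPM in siPRMT1 ethanol libraries, against 17.9, 23.0 and 20.7 CPM in siCT ethanol libraries. With R5020 it had 44.5, 42.7 and 41.4 CPM in siPRMT1 libraries, against 25.9, 23.5 and 24.9 CPM in siCT libraries. All siPRMT1 libraries were above all siCT libraries. The log2 fold change was 0.75 ± 0.13 in ethanol (adjusted p = 0.00109, edgeR) and 0.79 ± 0.13 in R5020 (adjusted p = 0.000976, edgeR), and both calls held under all 21 alternatives. Its paralog KDM3B had 0.08 in ethanol and 0.04 in R5020, neither past the test. KDM3A counts were 0.553 to 0.616 of KDM3B in siPRMT1 ethanol and 0.291 to 0.415 in siCT ethanol libraries, and 0.748 to 0.866 in siPRMT1 R5020 and 0.404 to 0.545 in siCT R5020 libraries.

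The 250 bases before the starts of these genes, which had the smallest adjusted p among those that rose with siPRMT1, are shown from RefSeq on GRCh38.p14, plus strand, 5′ to 3′. KDM1B lies at chr6:18155172-18155421 and KDM3A at chr2:86441121-86441370. Capitals mark E2F-type letters (the letters TTCCCGC, also TTGGCGC, also TTCGCGC and also TTGCCGC) and CCAAT, on either strand.
KDM1B: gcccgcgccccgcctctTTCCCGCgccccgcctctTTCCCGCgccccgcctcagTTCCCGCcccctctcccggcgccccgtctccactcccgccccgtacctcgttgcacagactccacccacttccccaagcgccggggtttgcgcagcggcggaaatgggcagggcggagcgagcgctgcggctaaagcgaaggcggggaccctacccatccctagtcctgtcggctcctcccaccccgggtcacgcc
KDM3A: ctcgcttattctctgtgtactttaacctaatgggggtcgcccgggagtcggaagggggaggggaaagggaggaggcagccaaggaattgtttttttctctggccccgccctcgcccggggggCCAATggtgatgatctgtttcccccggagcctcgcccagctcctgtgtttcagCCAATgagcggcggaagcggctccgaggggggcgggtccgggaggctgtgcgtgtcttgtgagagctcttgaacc
KDM1B held 3 E2F-type matches, at 233, 215 and 196 bases before the start, all of them TTCCCGC in a repeated stretch, and no CCAAT. KDM3A held CCAAT at 128 and 75 bases and no E2F-type match. E2F-type letters were found in 5 of 36 members (13.9%: EZH1, SUZ12, WHSC1, SETD8 and KDM1B), beside 10.9% of all promoters.

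SETD7 and SETD3, described above with R5020, were also higher with siPRMT1, and their libraries did not overlap in ethanol or in R5020. SETD7 averaged 76.4 ± 4.91 CPM in siPRMT1 ethanol and 41.0 ± 11.5 CPM in siCT ethanol libraries (log2 0.90 ± 0.21, adjusted p = 0.00742, edgeR). In R5020 it averaged 139 ± 8.22 CPM with siPRMT1 and 89.1 ± 19.8 CPM with siCT (log2 0.64 ± 0.21, adjusted p = 0.0403, edgeR). SETD3 averaged 57.4 ± 1.76 CPM in siPRMT1 ethanol and 38.4 ± 9.57 CPM in siCT ethanol libraries (log2 0.58 ± 0.20, adjusted p = 0.0392, edgeR), and 109.7 ± 1.03 CPM in siPRMT1 R5020 and 68.2 ± 15.1 CPM in siCT R5020 libraries (log2 0.69 ± 0.20, adjusted p = 0.0228, edgeR). Both genes thus had their highest level in siPRMT1 R5020 libraries and their lowest in siCT ethanol libraries. Without the pair of high mitochondrial share the log2 values were 0.70 and 0.48 for SETD7 and 0.40 and 0.53 for SETD3, in ethanol and in R5020. The SETD7 call in R5020 was lost on leaving out any of 8 libraries (adjusted p = 0.0595 to 0.138, edgeR) and the SETD3 call in ethanol on leaving out any of 7 (adjusted p = 0.0506 to 0.109, edgeR). The SETD3 call in R5020 was lost without siCT R5020 replicate 1 or any siPRMT1 R5020 library (adjusted p = 0.064 to 0.0803, edgeR).

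SETD2 averaged 77.4 ± 3.10 CPM in siPRMT1 ethanol and 59.2 ± 2.05 CPM in siCT ethanol libraries, and ranged over 70.3 to 74.9 CPM in siPRMT1 R5020 and 54.5 to 55.3 CPM in siCT R5020 libraries. Its log2 fold change was 0.39 ± 0.12 in both (adjusted p = 0.0219 in ethanol and 0.0256 in R5020, edgeR), and the groups did not overlap. The calls were lost on leaving out any siPRMT1 ethanol library in ethanol, and any siPRMT1 R5020 or siCT R5020 library in R5020 (adjusted p = 0.0585 to 0.0905, edgeR). WHSC1, an H3K36 dimethylase, averaged 39.5 ± 1.69 CPM in siPRMT1 R5020 and 54.3 ± 5.33 CPM in siCT R5020 libraries, where it fell by 0.46 ± 0.15 on the log2 scale (adjusted p = 0.0397, edgeR). In ethanol it averaged 34.9 ± 2.41 CPM with siPRMT1 and 46.2 ± 8.74 CPM with siCT (log2 -0.41, adjusted p = 0.054, edgeR). The WHSC1 call was lost in 11 of 21 alternatives, among them leaving out any of 8 libraries (adjusted p = 0.0583 to 0.127, edgeR).

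Among the enzymes of repressive marks, SETDB1 had 23.6, 25.8 and 26.0 CPM in siPRMT1 ethanol libraries, against 39.8, 32.4 and 50.8 CPM in siCT ethanol libraries. With R5020 it had 25.1, 24.2 and 24.3 CPM in siPRMT1 libraries, against 42.4, 35.0 and 35.0 CPM in siCT libraries. All siPRMT1 libraries were below all siCT libraries, and the highest library of each siCT group was one of the pair of high mitochondrial share. SETDB1 fell by 0.70 ± 0.16 in ethanol (adjusted p = 0.00612, edgeR) and by 0.61 ± 0.16 in R5020 (adjusted p = 0.0155, edgeR) on the log2 scale. Without that pair the log2 values were -0.51 and -0.50. The call in R5020 was lost without siCT R5020 replicate 1 or siPRMT1 R5020 replicate 2 or 3 (adjusted p = 0.0561 to 0.0612, edgeR). SETDB1 shares 13.4% of its exon bases in GENCODE v29 with CERS2 on the other strand, which had log2 values of -0.09 in ethanol and 0.16 in R5020. Its paralog SETDB2 had 0.31 and 0.17, neither past the test, although it was called higher in ethanol without that pair and in R5020 by voom.

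SUV39H1 fell with siPRMT1, to the levels per library given above, by 0.81 ± 0.21 in ethanol (adjusted p = 0.0122, edgeR) and by 0.61 ± 0.21 in R5020 (adjusted p = 0.0458, edgeR) on the log2 scale. The siPRMT1 and siCT libraries did not overlap in either. The call in ethanol was lost without siPRMT1 ethanol replicate 3 (log2 -0.69, adjusted p = 0.0636, edgeR) and that in R5020 on leaving out any of 8 libraries (adjusted p = 0.0558 to 0.153, edgeR). SUV420H2, which with its paralog SUV420H1 makes the higher methylation states of H4K20, had 3.11, 3.17 and 2.37 CPM in siPRMT1 ethanol libraries, against 7.27, 3.69 and 7.82 CPM in siCT ethanol libraries. With R5020 it had 2.84, 2.80 and 3.02 CPM in siPRMT1 libraries, against 4.76, 5.32 and 4.53 CPM in siCT libraries. The siPRMT1 libraries were lower throughout, with siCT ethanol replicate 2 close to them. SUV420H2 fell by 1.11 ± 0.25 in ethanol (adjusted p = 0.00518, edgeR) and by 0.75 ± 0.25 in R5020 (adjusted p = 0.0407, edgeR) on the log2 scale. The call in ethanol held under all 21 alternatives, and that in R5020 was lost in 11, among them leaving out any of 9 libraries (adjusted p = 0.0501 to 0.119, edgeR). SUV420H1 had 0.12 in ethanol and 0.19 in R5020, neither past the test. Of the 22 proliferation genes, 7 were called higher and 4 lower in ethanol, beside 13.6% and 19.2% of all genes. In R5020, 2 were called higher and 8 lower, beside 11.5% and 14.2%. In ethanol the 22 genes summed to 833.7 to 853.7 CPM with siPRMT1 and 547.8 to 731.5 CPM with siCT. This sum was thus higher with siPRMT1 in ethanol, where SUV39H1 was lower. In R5020 it was 926.3 to 976.6 CPM with siPRMT1 and 947.2 to 1200 CPM with siCT. The part of the proliferation genes in these results was not tested.

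**Figure D3:**
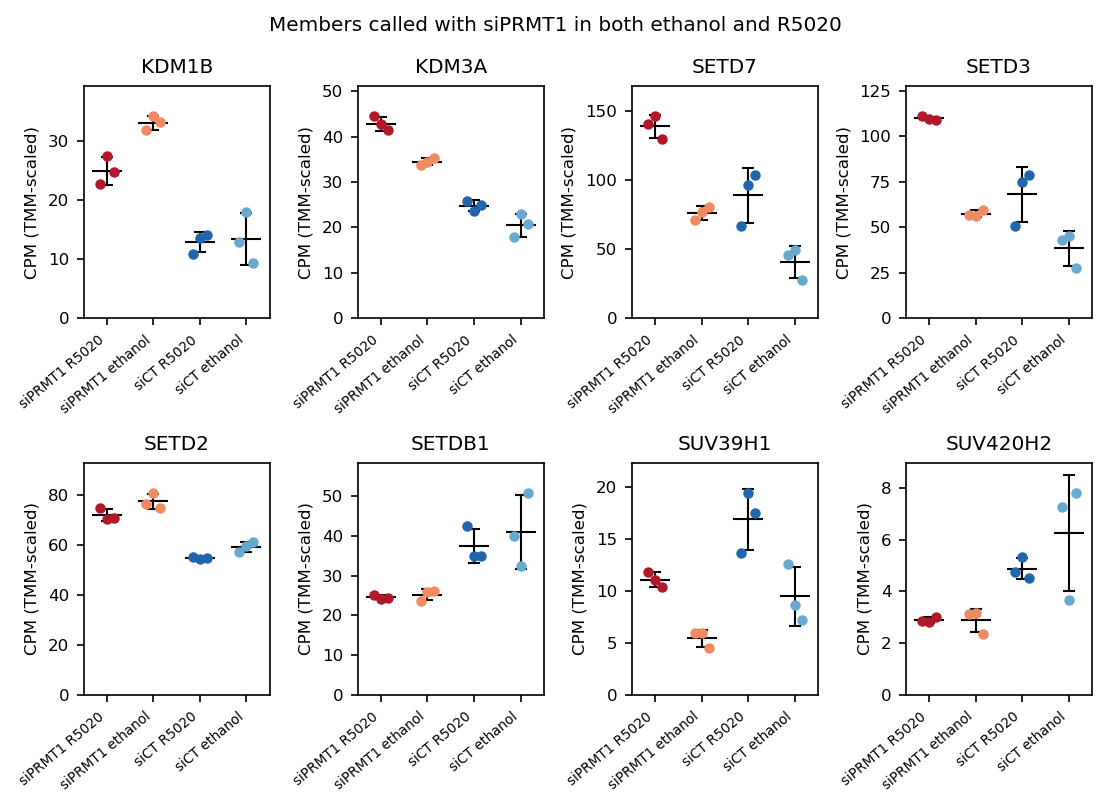
CPM (TMM-scaled, linear axis from 0) of the 8 genes called with siPRMT1 in both ethanol and R5020; points are libraries, the long bar is the mean of 3 and the whiskers are the SD. KDM1B, KDM3A, SETD7, SETD3 and SETD2 are higher with siPRMT1 and SETDB1, SUV39H1 and SUV420H2 lower.

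The other members were not called with siPRMT1 by edgeR over all 12 libraries. DESeq2 called SUZ12, JARID2, KDM1A and KDM4C higher in ethanol and ASH1L (adjusted p = 0.000333) and KDM4C higher in R5020. Voom called SUZ12 higher in ethanol, and in R5020 SUZ12, ASH1L, SETDB2, DOT1L, KDM5A, KDM4C and KDM6B higher and SETD5 and EHMT1 lower. Without the pair of high mitochondrial share, edgeR called JARID2, ASH1L, SETDB2 and KDM4C higher in ethanol. In R5020 that fit called ASH1L, KDM4C and KDM6B higher and SETD5 lower. In PRC2, EZH1, EZH2, EED, SUZ12 and JARID2 had log2 values of -0.31, 0.17, 0.21, 0.56 and 0.36 in ethanol and of 0.03, -0.28, -0.20, 0.52 and 0.03 in R5020. Among writers, SETD1A, NSD1, WHSC1L1, ASH1L and SETD5 had -0.25, -0.09, 0.09, 0.15 and -0.26 in ethanol and -0.01, 0.15, 0.17, 0.36 and -0.24 in R5020. SUV39H2, EHMT1, EHMT2, SETD8 and DOT1L had 0.29, -0.15, -0.39, -0.08 and -0.20 in ethanol and -0.13, -0.42, -0.28, -0.12 and 0.41 in R5020. Of the H3K4 and H3K36 erasers, KDM5A, KDM5B, KDM2A and KDM2B had 0.17, 0.04, 0.14 and 0.04 in ethanol and 0.28, 0.11, 0.07 and 0.04 in R5020. KDM4A, KDM4B, KDM4C, PHF8, KDM7A and KDM6B had -0.07, 0.14, 0.42, -0.08, -0.14 and 0.15 in ethanol and -0.06, 0.07, 0.41, -0.07, -0.06 and 0.29 in R5020. KDM4C came nearest in ethanol (adjusted p = 0.0515, edgeR) and ASH1L in R5020 (adjusted p = 0.0534, edgeR). The siPRMT1 and siCT libraries did not overlap for 16 of the 38 genes in ethanol (10 above, 6 below) and 22 in R5020 (14 above, 8 below). Over all genes 20.9% lay above and 23.8% below in ethanol, and 25.6% above and 26% below in R5020.

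The R5020 effect in siPRMT1 cells and that in siCT cells share no library, nor do the siPRMT1 effects in ethanol and in R5020. Of the 7 genes that rose with R5020 in siPRMT1 cells, 6 (85.7%) also rose in siCT cells, where they were all that rose (100%). With siPRMT1 the same 5 genes rose in ethanol and in R5020, and the 3 that fell in ethanol were among the 4 that fell in R5020 (100% and 75%). The overlap of calls over all genes was not computed. All these calls rest on a spread per gene pooled over every library, so calls in both comparisons are not independent of each other. The sign of the log2 fold change was the same for 32 of the 38 genes in either pair of comparisons, beside 78.1% of all genes for R5020 and 85.6% for siPRMT1. R5020 in siCT cells and siPRMT1 in ethanol share the siCT ethanol libraries, so their values for SETD7, SETD3 and SUV39H1 are not independent of each other.

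**Figure D4:**
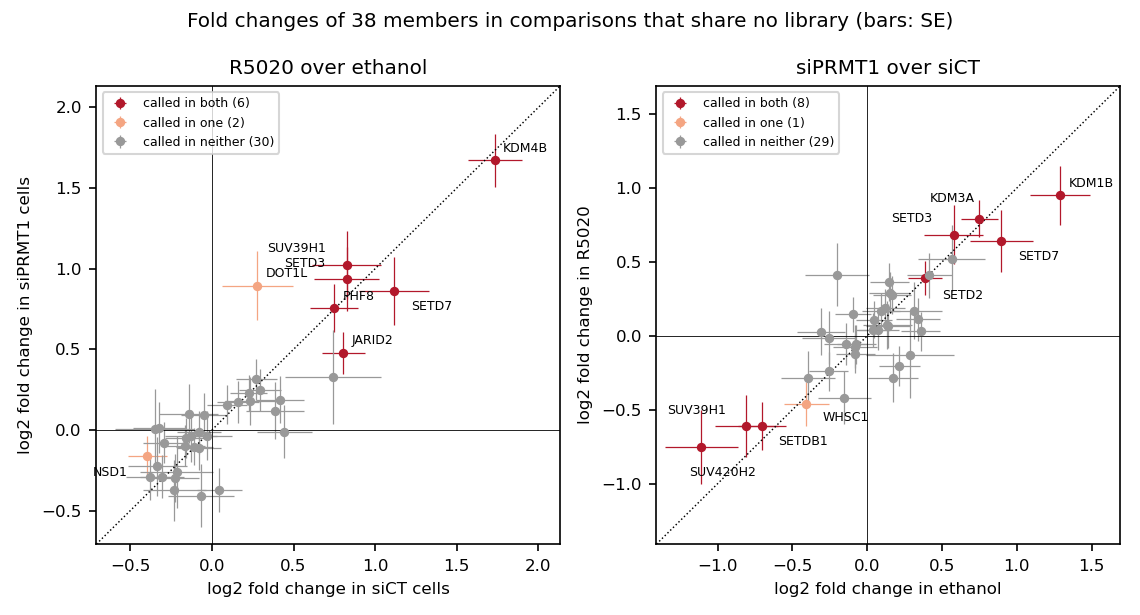
Log2 fold changes of the 38 genes in comparisons that share no library, with R5020 over ethanol on the left (siCT cells on the x axis, siPRMT1 cells on the y axis) and siPRMT1 over siCT on the right (ethanol on x, R5020 on y). Bars are SE from the fit over all 12 libraries and the dotted line is equality. KDM4B lies at 1.73 and 1.67 near the line, DOT1L at 0.28 and 0.90 above it, and KDM1B at 1.29 and 0.95 below it.

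Whether PRMT1 knockdown altered the R5020 response was tested as the difference of the R5020 effects, siPRMT1 minus siCT. None of the 38 passed with edgeR, DESeq2 or voom, and 1 of the 38 (EED) had an unadjusted p under 0.05, beside 720 of all genes. Over all genes 0.079% were called, 0.0451% higher and 0.0338% lower. EED, the core subunit that binds trimethylated H3K27, differed by -0.42 (95% interval -0.838 to -0.002, unadjusted p = 0.0489 and adjusted p = 1, edgeR). EZH2 differed by -0.45 (-0.96 to 0.05) and DOT1L by 0.61 (-0.04 to 1.27). For KDM4B the difference was -0.06, with an interval of -0.55 to 0.43, which does not show that the responses were alike.

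Related genes outside the 38 were taken as a list of partners, readers and further enzymes, of which 82 were in the tables and 78 were tested. With R5020, 8 rose and 4 fell in siPRMT1 cells and 6 rose and 4 fell in siCT cells. With siPRMT1, 8 rose and 9 fell in ethanol and 6 rose and 6 fell in R5020. For comparison, the progestin calls of this fit took in 15.4% of the 17727 genes in siPRMT1 cells and 13% in siCT cells. Its knockdown calls took in 32.8% in ethanol and 25.7% in R5020. Whether the list differed from all genes was not tested, and the genes named next were picked from those called. The PRC2 partners RBBP7, a histone-binding WD-repeat protein, and PHF19, a Polycomb-like protein, rose with R5020 beside JARID2, by 0.81 and 1.02 on the log2 scale in siPRMT1 cells and by 1.48 and 1.10 in siCT cells. PHF1, another Polycomb-like protein, fell with siPRMT1 by 1.07 in ethanol and by 0.87 in R5020. The KDM1A partner PHF21A, which reads unmethylated H3K4, fell by 1.198 in siPRMT1 cells and by 0.61 in siCT cells with R5020. Among further Jumonji proteins, JMJD6 rose with R5020 by 0.90 in siPRMT1 and 0.70 in siCT cells, and KDM8 and PHF2 fell with siPRMT1 by 0.90 and 0.65 in ethanol and by 0.80 and 0.75 in R5020.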

How the data were processed

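The authors deposited whole-number read counts per gene symbol for each of the 12 libraries, without normalization. The submitters' processing notes name the build hg19 and the tools HTSeq 0.9.1, Bowtie2 2.3.2.2 and DESeq2. For these tools the roles, and for the counting the strand setting and annotation release, were not given in the sources used here. The authors' own comparison table was not used here. Testing used R 4.3.3 and edgeR 4.0.16: filterByExpr kept 17727 of 55765 genes, libraries were TMM-scaled, 1 mean per group was fitted over 12 libraries, and each contrast had a quasi-likelihood test, with p adjusted over all genes by Benjamini-Hochberg (called under 0.05). The procedure was tried on simulated counts drawn with 1 spread per gene for all 12 libraries. That setting lacks the difference in spread between siPRMT1 and siCT libraries, so it cannot show how the procedure fares with such a difference. Levels are CPM with the SD over 3 libraries, fold changes carry the SE, and p-values measure the spread between libraries labelled as biological replicates. The SE and p-values of edgeR rest on 1 spread per gene over all 12 libraries. They show neither the narrower spread of the siPRMT1 libraries nor the wider spread of the siCT libraries. The members and lists were chosen with earlier results of these data known. Called members are named, and those with the 4 smallest adjusted p in each comparison (10 genes) are given in every library. Alternatives were other scalings, no filter, DESeq2 1.42.0, limma 3.58.1 voom with quality weights, a replicate block, fits of the compared groups only, each library left out, and the pair of high mitochondrial share left out. Exon lengths and overlaps come from GENCODE v29 (GRCh38) and promoters from RefSeq (GRCh38.p14), matched by symbol (36 of 38).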

Additional observations from a re-analysis of the deposited data

How the results depend on the processing

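No log2 fold change of a called member changed sign under any of the 21 alternatives, and 6 of the 31 calls held under all of them: KDM4B with R5020 with both siRNAs, KDM3A with siPRMT1 in ethanol and R5020, and KDM1B and SUV420H2 with siPRMT1 in ethanol. Counts below are members higher and lower, beside 7 and 0 for R5020 in siPRMT1 cells, 6 and 1 for it in siCT cells, 5 and 3 for the knockdown in ethanol, and 5 and 4 for the knockdown in R5020, in this order. Percentages with them are shares of all genes called by the same fit, in the same order. By edgeR over all 12 libraries these were 15.4%, 13%, 32.8% and 25.7%. Library totals alone gave 1 and 0, 1 and 0, 2 and 1, and 1 and 0, beside 11.6%, 8.9%, 17% and 13.7%. They put the median log2 of all genes at -0.17, -0.07, 0.11 and 0.01. The cause was not tested. Totals without mitochondrial genes gave 6 and 1, 6 and 2, 5 and 3, and 4 and 4, beside 16.3%, 14.1%, 32.1% and 25.3%. They put that median at -0.13 for R5020 in either siRNA. DESeq2 gave 7 and 1, 7 and 2, 9 and 3, and 7 and 4, beside 14.7%, 13.2%, 31.5% and 25%. No filter on low counts gave 6 and 0, 7 and 0, 5 and 3, and 4 and 3, beside 8.97%, 7.99%, 19.7% and 15.8%. Voom with quality weights gave 15 and 9, 7 and 0, 6 and 3, and 12 and 6, beside 46.1%, 11.6%, 30.7% and 55.7%. Fits of compared groups only gave 15 and 8, 3 and 0, 3 and 2, and 8 and 4, beside 46.6%, 5.29%, 19.5% and 35.2%. For R5020, fits of compared groups only take the spread of the siPRMT1 libraries (common coefficient of variation 0.0752 in R5020 and 0.0464 in ethanol) apart from that of the siCT libraries (0.210 and 0.324). For the knockdown, they hold libraries of both siRNAs with 1 spread per gene. Without both libraries of high mitochondrial share the counts were 8 and 4, 7 and 4, 9 and 3, and 8 and 5. The shares of all genes were 29.1%, 19.9%, 44.5% and 38.9%, and all 31 calls were kept. Leaving out 1 library at a time gave 4 to 7 higher and 0 to 2 lower, 4 to 7 and 0 to 3, 3 to 9 and 2 to 8, and 2 to 8 and 0 to 4, and 0 for the interaction. Leaving out siCT ethanol replicate 2 gave the 9 and 8 for siPRMT1 in ethanol, beside 43.4%. Fits with 1 library left out called 10.1% to 21.1%, 8.57% to 16.8%, 19.3% to 43.4%, and 12.9% to 37.5% of all genes. A replicate block gave 7 and 0, 6 and 0, 3 and 3, and 3 and 1, beside 12.9%, 10.7%, 27.8% and 21.7%. It kept 23 of 31 calls. The replicate numbers were not found to pair the samples: deviations of same-numbered libraries correlated at -0.639 to 0.269 over 18 pairs, 3 of them over 0.1. Differently numbered libraries of different groups correlated at -0.575 to 0.788 over 36 pairs, 5 of them over 0.1. The 0.788 was between the siCT libraries of high mitochondrial share, which carry different numbers. The check therefore cannot settle pairing among the siCT libraries. Depth limits the lowest members most, the fewest counts of any member in a library being 77.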
